A study of Homo sapiens with 2 samples.

Results

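Plasma membrane amino acid transporters were examined in the established cell line SK-ES-1, which derives from Ewing sarcoma, a tumour type driven by a fusion of EWSR1 with an ETS transcription factor gene. The genes were 10 transporter genes or subunits picked by name, SLC7A5, SLC3A2, SLC7A11, SLC7A1, SLC1A4, SLC1A5, SLC38A1, SLC38A2, SLC6A9 and SLC43A1, out of 53737 genes in the deposited tables. They were picked with the comparison of these same libraries already known, so their values are given as a description and no test was made. The study had 2 libraries, 1 of cells the labels call slow-cycling (SCCs) and 1 of cells they call non-SCCs. It asked how the expression of slowly dividing cells of this line differs from that of the non-SCCs. Both groups share the genotype label WT, and no drug, time point or transgene is named for either. They are called the SCC and the non-SCC library below. The way the slow-cycling cells were separated is not given in the sources used here, and the table headers call them LRC and non-LRC without explaining the abbreviation.

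With 1 library per group, every difference below is a difference between 2 libraries without a replicate check. Levels are in per-million units, obtained by reversing the log2(value + 1) scale that the deposited numbers appear to have, and the read depth behind them is unknown. A log2 ratio is the log2(level + 1) of the SCC library minus that of the non-SCC library, whereas a fold value given with 2 levels is their quotient. Counts of genes past or within a fold use the log2 ratio. A gene was tested, meaning that it entered the counts, when it had at least 1 unit in at least 1 library, which 13444 genes did. Their median log2 ratio was 0.03, with quartiles of -0.10 and 0.19. All 12 listed Ewing sarcoma genes were present in both libraries. Without CCND1, which many other cells express and which held the largest share, the other 11 summed to 1548 units in the SCC library and 1581 in the non-SCC library, none was below 16.8 units, and 6 had a ratio above 0 and 5 below, among the latter CD99 (-0.20) and NR0B1 (-0.30). A listed 0 need not mean that a gene is silent in these tables, since GPX1, an antioxidant enzyme that nearly every cell expresses, was listed at 0 in both.

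Amino acids cross the plasma membrane through solute carriers, membrane proteins that differ in which amino acids they accept and in what drives the transport. SLC7A5 (LAT1) takes up leucine and other large neutral amino acids in exchange for intracellular ones, and works only when bound to the heavy chain SLC3A2 (CD98hc, 4F2hc), which brings it to the cell surface. The same heavy chain carries SLC7A11 (xCT), which exchanges cystine for glutamate and feeds glutathione synthesis. SLC38A2 (SNAT2), SLC38A1 (SNAT1) and SLC1A5 (ASCT2) supply glutamine and small neutral amino acids, some of which can serve as exchange partners for SLC7A5. Several of these genes are known targets of ATF4, the transcription factor of the integrated stress response to amino acid shortage, and SLC7A5 is also a known target of MYC.

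The sequences before the transcription starts of the 2 genes that differed most, SLC7A5 and its partner SLC3A2, are shown first, because both subunits of 1 transporter were higher together. They are the 250 bases before a start, from RefSeq's promoter windows of GRCh38.p14, each read along the strand of its gene. Capitals mark matches to 3 short motifs: TGATGNAA, the core of the element bound by C/EBP and ATF factors; CACGTG, the E-box; and TGACNNNGC, the core of the antioxidant response element. SLC7A5 has 1 start in this table (chr16:87869508-87869757, minus strand). SLC3A2 has several, of which the first (chr11:62855859-62856108, plus strand) and the one at 62881699 (chr11:62881449-62881698, plus strand) are given.
SLC7A5: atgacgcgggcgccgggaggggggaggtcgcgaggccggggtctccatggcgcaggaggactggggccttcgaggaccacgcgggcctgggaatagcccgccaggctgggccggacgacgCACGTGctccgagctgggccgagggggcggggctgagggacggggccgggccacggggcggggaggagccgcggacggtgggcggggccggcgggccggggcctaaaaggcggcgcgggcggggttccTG
SLC3A2, first start: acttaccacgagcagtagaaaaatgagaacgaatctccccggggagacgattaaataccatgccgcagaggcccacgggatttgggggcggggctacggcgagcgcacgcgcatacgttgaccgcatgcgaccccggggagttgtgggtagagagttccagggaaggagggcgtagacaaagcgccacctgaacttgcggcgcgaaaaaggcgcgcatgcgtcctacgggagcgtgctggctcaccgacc
SLC3A2, start at 62881699: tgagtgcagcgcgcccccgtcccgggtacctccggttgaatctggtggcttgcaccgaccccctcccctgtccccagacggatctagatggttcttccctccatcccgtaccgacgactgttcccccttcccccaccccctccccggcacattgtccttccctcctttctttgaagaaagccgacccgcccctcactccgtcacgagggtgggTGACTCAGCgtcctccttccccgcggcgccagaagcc
The SLC7A5 sequence holds an E-box that begins 130 bases before the start. Its last capitals are the first letters of TGACGCAGC, an antioxidant element core that begins 2 bases before the start and runs across it. The first SLC3A2 window holds none of the 3 motifs, whereas the window of the start at 62881699 holds TGACTCAGC 37 bases before the start. The first SLC3A2 start lies 224 bases from that of SNHG1 (62855885), a non-coding RNA gene that hosts small nucleolar RNAs and is transcribed on the opposite strand.

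Motif matches were counted on both strands over windows of 300 bases, 250 before and 50 after a start, in which a palindromic E-box counts once and motifs may overlap. Of the 10 genes, 9 had windows, 16 in all. SLC7A11 had no entry. TGATGNAA was found in 5 of the 16 windows, which belong to 5 genes, against 3.62% of all 35116 windows. The matches were TTGCATCA at SLC1A4, TTACATCA at SLC3A2, TGATGAAA at SLC38A1 and at SLC7A1, and TGATGCAA at SLC1A5. SLC7A5, SLC38A2, SLC6A9 and SLC43A1 were without this core in their windows, and sequence beyond the windows was not searched. The E-box was found in 3 windows, those of SLC7A5, SLC43A1 and SLC1A5, against 7.26% of all windows. The antioxidant core was found in 4, of SLC7A5, SLC3A2, SLC7A1 and SLC1A5, against 13.3%. A match describes these letters alone, and which start these cells use was not tested. Motifs also stood in windows of genes that were not higher. SLC7A1, with 2 matches in its window, had a log2 ratio of -0.18. SLC1A5, slightly lower in the SCC library, held all 3 motifs, but spread over its windows. The window of its start at 46788594 held none, that at 46787293 the E-box and the antioxidant core, and that at 46784814 TGATGCAA.

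SLC7A5 was the gene of the 10 that differed most. It was at 181 units in the SCC library and at 66.6 in the non-SCC library, 2.71-fold higher, a log2 ratio of 1.42. The gene lies on the minus strand of chromosome 16 (87830023 to 87869507, GRCh38). Its ratio was rank 93 from the top among all 13444 tested genes, and rank 2 among the 2712 tested genes with a mean of at least 64 units. Large ratios were commoner at low levels, and in the bin of tested genes like SLC7A5 in level, 1 of 20 bins, the median log2 ratio was -0.07. In bulk RNA, a higher level per cell and a larger share of cells that express the gene cannot be told apart.

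SLC7A5 has 2 pseudogene entries that can share reads with it. SLC7A5P2 was at 2.49 units in the SCC library and 2.17 in the non-SCC library, and SLC7A5P1 was listed at 0 in both. With these added to SLC7A5 the log2 ratio was 1.40. The values listed for the pseudogenes were small beside that of SLC7A5 in both libraries.

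SLC3A2, the heavy chain, was also higher. It was at 158 units in the SCC library and 103 in the non-SCC library, 1.53-fold, a log2 ratio of 0.61. It lies on the plus strand of chromosome 11 (62856109 to 62888860). Its ratio was rank 647 from the top among all 13444 tested genes and rank 17 among the 2712 with a mean of at least 64 units. The ratio lay just past 1.5-fold, which is 0.58 on the log2 scale, and once the ratios were centred on the median of tested genes it was 0.581, just short of it. SNHG1, named after its values were seen because its start faces that of SLC3A2, was at 268 and 290 units, a log2 ratio of -0.12. The ratios of these facing genes lay on opposite sides of 0, that of SNHG1 within 1.2-fold.

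Light chain and heavy chain did not differ to the same extent. The level of SLC7A5 divided by that of SLC3A2 was 1.14 in the SCC library and 0.647 in the non-SCC library, a 1.77-fold difference. SLC3A2 binds 6 light chains on the lists used here, SLC7A5 included, and 5 of them were tested, with a median log2 ratio of 0.26. SLC7A11 was at 11.6 units in the SCC library and 9.01 in the non-SCC library, 1.29-fold, a log2 ratio of 0.34; it lies on the minus strand of chromosome 4 (138164097 to 138242349), and its antisense gene SLC7A11-AS1 was listed at 0 in both libraries. SLC7A6, which exchanges cationic for neutral amino acids, had a log2 ratio of 0.26, at 25.0 and 20.7 units. SLC7A8 (LAT2), a second carrier of large neutral amino acids, had one of -0.15, at 30.7 and 34.2 units. SLC7A7 was at 1.19 and 1.34 units, and SLC7A10, at 0.708 and 0.594, was below the minimum level. SLC7A5 was the only light chain past 1.5-fold among the 5. Of all tested genes, 5.38% were that much higher and 1.41% that much lower, so the other light chains falling short of it says little.

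**Figure D1:**
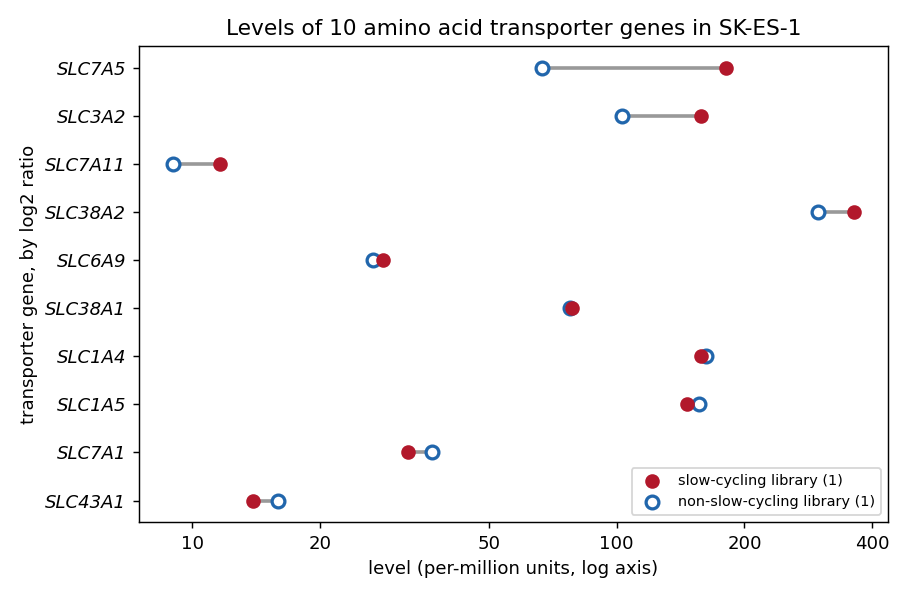
Levels of the 10 transporter genes, in per-million units on a log axis, with 1 filled point for the SCC and 1 open point for the non-SCC library; there are no error bars because each group has 1 library. SLC7A5 moves from 66.6 units in the non-SCC to 181 in the SCC library, while the points of SLC38A1 lie on each other at 77.7 and 78.3.

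The genes of system L, the uptake of large neutral amino acids, were thus not all higher, and uptake itself was not measured. SLC43A1 (LAT3), a system L carrier that needs no heavy chain, was at 13.9 units in the SCC library and 16.0 in the non-SCC library, a log2 ratio of -0.19 and the lowest of the 10. It lies on the minus strand of chromosome 11 (57484534 to 57515702). Of the 3 tested system L genes, 1 had a ratio above 0, SLC7A5, and 2 below, SLC7A8 and SLC43A1. SLC43A2, a relative of SLC43A1, was at 0.238 and 0.170 units and was not tested. Summed over the 4 system L genes, the level was 225 units in the SCC library and 117 in the non-SCC library, most of it that of SLC7A5 in both.

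Among the carriers of glutamine and small neutral amino acids, SLC38A2 was slightly higher and the others lay near equal levels. SLC38A2, a sodium-coupled importer that cells raise on amino acid shortage, was the most abundant of the 10 in both libraries, at 362 units in the SCC library and 298 in the non-SCC library, 1.21-fold, a log2 ratio of 0.28. It was rank 2176 from the top among all 13444 tested genes and rank 100 among the 2712 abundant genes. Once the ratios were centred on their median, SLC38A2 was at 0.247, short of 1.2-fold. Its relative SLC38A1, 1 of its neighbours on chromosome 12, was at 78.3 and 77.7 units, a log2 ratio of 0.01, or -0.02 once the ratios were centred on their median. The level of SLC38A2 divided by that of SLC38A1 was therefore 1.204-fold higher in the SCC library. SLC38A5, another family member, was at 82.0 and 87.6 units. SLC38A2 lies at 46358188 to 46372773 and SLC38A1 at 46183063 to 46269043, both on the minus strand, and the antisense gene at the start of SLC38A2 was listed at 0 in both libraries.

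The exchangers of the SLC1 family were close to level. SLC1A5, the main exchanger of glutamine, was at 147 units in the SCC library and 156 in the non-SCC library, a log2 ratio of -0.09. SLC1A4 (ASCT1), which exchanges serine, alanine and cysteine, was at 158 and 162 units, a log2 ratio of -0.04, which was 0.03 once the trend of the ratio with level was removed. SLC1A5 lies on the minus strand of chromosome 19 (46774883 to 46788594) and SLC1A4 on the plus strand of chromosome 2 (64988479 to 65023865). Neither difference can be told from no difference with 1 library per group. SLC6A9 (GLYT1), the glycine importer on chromosome 1 (43996483 to 44031462, minus strand), was at 28.2 and 26.6 units, a log2 ratio of 0.08.

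The arginine and lysine importer SLC7A1 (CAT1) was slightly lower, at 32.3 units in the SCC library and 36.7 in the non-SCC library, a log2 ratio of -0.18. It lies on the minus strand of chromosome 13 (29509414 to 29595688). The other cationic carriers of its family, named after their values were seen, were on the same side: SLC7A2 was at 9.56 and 11.4 units and SLC7A3 at 6.90 and 8.17, with log2 ratios of -0.23 and -0.22. All 3 were within 1.2-fold on the log2(level + 1) scale.

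**Figure D2:**
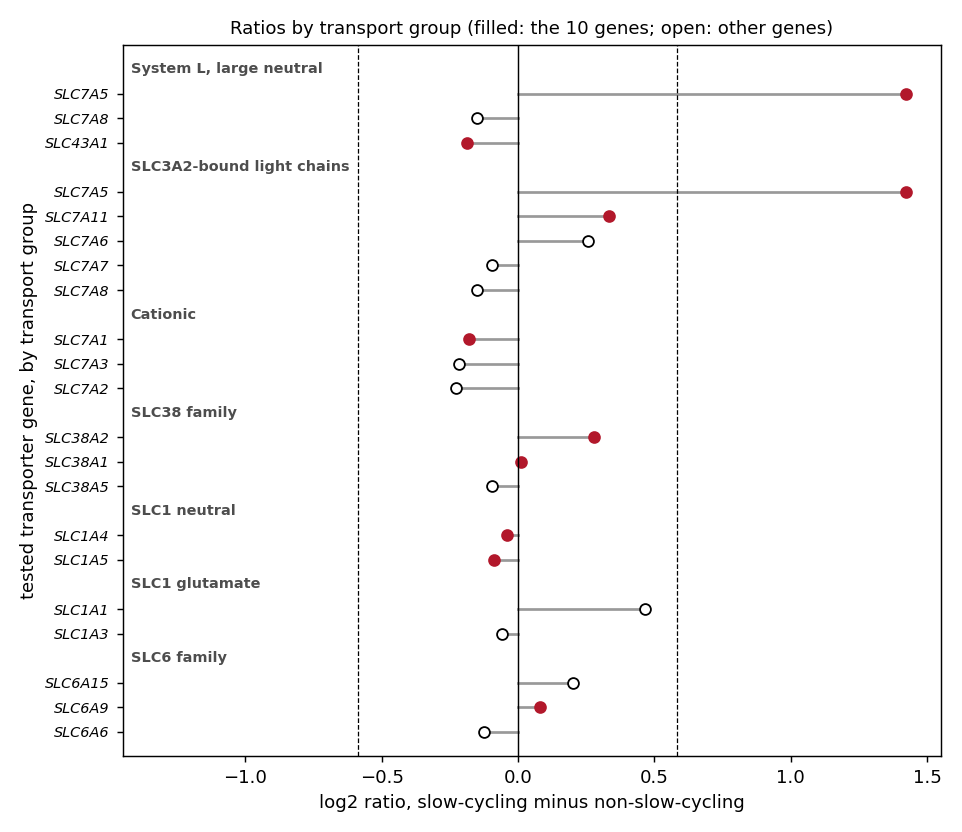
Log2 ratios of the tested transporter genes by transport group, filled for the 10 genes and open for other genes; dashed lines mark 1.5-fold either way, and SLC7A5 and SLC7A8 appear under both groups they belong to. SLC7A5, at 1.42, is the point farthest from 0, and the 3 cationic carriers lie between -0.23 and -0.18.

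Counted together, all 10 genes were above the minimum level in both libraries, the lowest value being 9.01 units. Past 1.5-fold on the higher side were 2 of the 10, SLC7A5 and SLC3A2, against 5.38% of all tested genes, and none was at least 1.5-fold lower, against 1.41%. The comparison of these libraries chose the genes, so nothing is read from these shares. Among the 2712 genes with a mean of at least 64 units, which hold 6 of the 10, 0.774% were at least 1.5-fold higher and 0.184% lower, and the same 2 of these 6 were past it. At 2-fold, 1 of the 10 was higher, against 1.90% of tested genes, and none lower, against 0.431%. At 1.2-fold, 4 of the 10 were higher, with SLC7A11 and SLC38A2 added, against 17.4% of tested genes, and none lower, against 7.59%. Neither added gene held under every alternative: SLC38A2 was at 0.247 once the ratios were centred on their median, and SLC7A11 at 0.247 with a pseudocount of 5 and at 0.241 with the level trend removed, below the 0.26 that 1.2-fold is on the log2 scale. The other 6 lay within 1.2-fold, as did 75.0% of all tested genes. The median log2 ratio of the 10 was 0.05, against 0.03 for all tested genes, and 0.01 without SLC7A5.

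**Figure D3:**
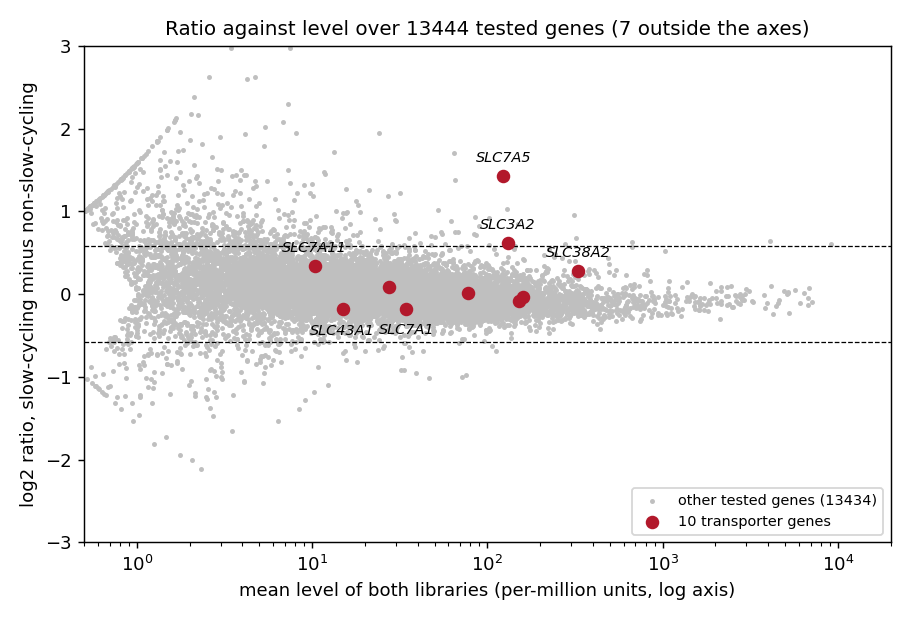
Log2 ratio against the mean level of both libraries (per-million units, log axis) for the 13444 tested genes in grey and the 10 transporter genes in red; dashed lines mark 1.5-fold. The grey cloud narrows with level, and SLC7A5, at 1.42, stands above nearly all genes of its level, whereas SLC7A1 and SLC43A1, at -0.18 and -0.19, lie within the cloud.

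The order of the levels changed mainly at SLC7A5. In the non-SCC library the order from the highest was SLC38A2, SLC1A4, SLC1A5, SLC3A2, SLC38A1, SLC7A5, SLC7A1, SLC6A9, SLC43A1 and SLC7A11. In the SCC library SLC7A5 moved from rank 6 to rank 2 and SLC3A2 from rank 4 to rank 3, while SLC38A2 stayed at rank 1 and SLC7A1, SLC6A9, SLC43A1 and SLC7A11 at ranks 7 to 10. Without replicates no spread can be set against the gaps between neighbours, and SLC3A2 and SLC1A4 were both at 158 units in the SCC library. Whether the deposited values are per length is not stated. The median level of tested protein-coding genes was 35.4 units among the 2927 genes with the shortest transcripts and 19.5 among the 2927 with the longest, so the values did not grow with transcript length as read shares without length scaling would, and the order was read on that basis.

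Other amino acid transporters of the plasma membrane did not show differences as large as SLC7A5. Besides the 10, a list of 30 such genes was drawn up, of which 14 were listed at 0 throughout and 12 reached the minimum level. The ratio of 5 of the 12 was above 0 and that of 7 below, with a median log2 ratio of -0.08. Within 1.2-fold lay 11 of the 12, against 75.0% of all tested genes. None was past 1.5-fold, where 5.38% of all tested genes were higher and 1.41% lower, so none among 12 genes says little. The most abundant were SLC38A5 and SLC7A8, given above, SLC7A6, and the taurine carrier SLC6A6 at 17.5 and 19.2 units. The highest ratio was that of SLC1A1 (EAAC1), a glutamate and cysteine importer, at 7.28 and 4.99 units, a log2 ratio of 0.47, named after its values were seen. Without the minimum level, 1 further gene was past 1.5-fold, SLC38A3, at 0.834 and 0.0254 units. At that level a ratio between single libraries says little.

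Amino acid carriers inside the cell lay close to level as well. Of 16 tested carriers of lysosomes and mitochondria, 15 were within 1.2-fold, against 75.0% of all tested genes, with a median log2 ratio of -0.01. The exception was SFXN3, of the sideroflexin family of mitochondrial serine carriers, at 11.9 units in the SCC library and 6.77 in the non-SCC library, a log2 ratio of 0.73. SLC38A9, the lysosomal arginine sensor of the mTORC1 kinase complex, had a log2 ratio of -0.22 at 10.7 and 12.6 units, and SLC25A15, the mitochondrial ornithine carrier, one of -0.24 at 21.5 and 25.6 units.

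Genes of glutathione synthesis and cystine use, the fate of what SLC7A11 imports, did not differ by as much as 1.5-fold. Of the 19 listed, GPX1 and SRXN1 were listed at 0 in both libraries. The ratio was above 0 in 4 and below 0 in 13 of the 17 tested genes. Their median log2 ratio was -0.06, against 0.03 for all tested genes. None was past 1.5-fold, where 5.38% of all tested genes were higher and 1.41% lower, so none among 17 genes says little. GCLC, the catalytic subunit of the first enzyme of glutathione synthesis, was at 24.3 and 22.3 units, a log2 ratio of 0.12. NFE2L2, which encodes the antioxidant transcription factor NRF2, had a log2 ratio of 0.10. The largest differences were those of CHAC1, a glutathione-degrading enzyme, at 6.34 and 4.68 units (0.37), of MAT2A, which makes S-adenosylmethionine from methionine, at 264 and 341 (-0.37), and of thioredoxin, TXN, at 323 and 391 (-0.27).

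The integrated stress response, to which many of the 10 genes are known to respond, was split. Of its 29 tested genes other than the transporters, 7 were at least 1.5-fold higher and none as much lower, against 5.38% and 1.41% of all tested genes, while 18 lay within 1.2-fold, against 75.0%, with a median log2 ratio of 0.07. ATF3, DDIT3 (CHOP) and VLDLR had log2 ratios of 1.71, 1.22 and 1.07. ATF3 also counts among the immediate early genes given further on. ATF4 itself was at 522 units in the SCC library and 514 in the non-SCC library, and its target ASNS, asparagine synthetase, at 108 and 101, with log2 ratios of 0.02 and 0.10. These are RNA levels and do not show the amount of ATF4 protein. MYC was at 375 and 381 units, a log2 ratio of -0.02.

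**Figure D4:**
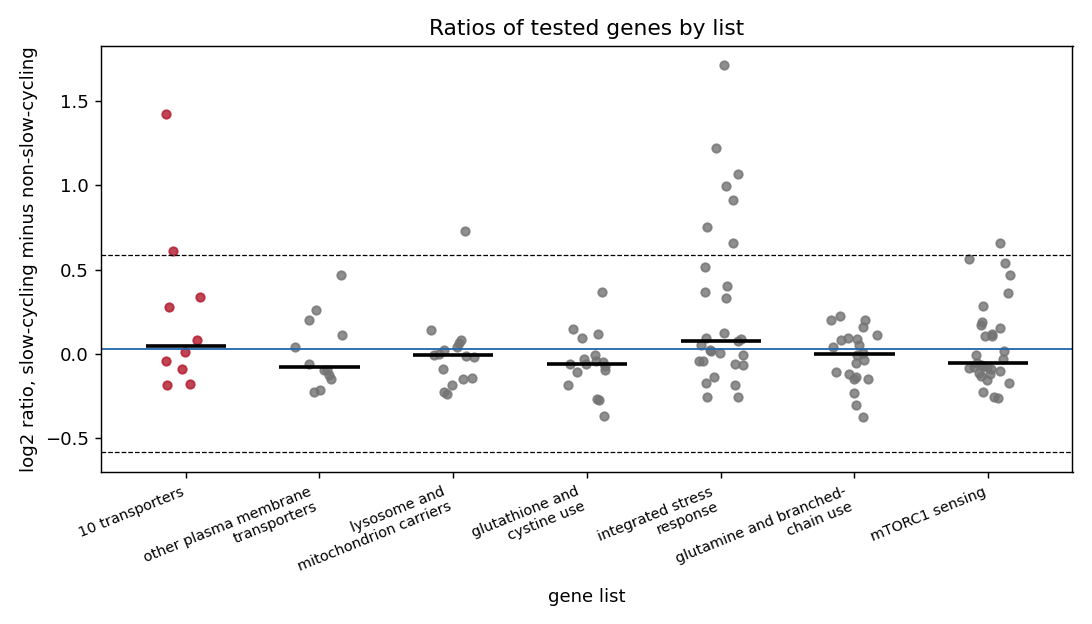
Log2 ratios of the tested genes of 7 lists, 1 point a gene, spread sideways at random; black bars are list medians, the blue line is the median of all tested genes and dashed lines mark 1.5-fold. The 10 transporters hold 2 points above the upper dashed line, and the integrated stress response holds 7.

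Genes of other kinds also differed between the 2 libraries, and with 1 library per group no link between such differences can be seen. Of 14 immediate early genes, which cells transcribe soon after stimulation or handling, 13 were on the higher side, 11 of them by 1.5-fold or more (5.38% of all tested genes), none was at 0, and their summed level was 3000 units against 1980 in the non-SCC library. Of 9 fibroblast markers, 7 were tested. All 7 had a ratio above 0, but 2 were past 1.5-fold and 2 within 1.2-fold, and COL1A2 and COL3A1, at 0.05 and 0.07, made up most of the summed levels of 276 and 248 units, while PDGFRA was listed at 0 in both libraries and LUM was at 0.0175 units and listed at 0. Of 8 immune markers, 6 were listed at 0 in both, PTPRC, CD3D and CD3E among them, and the other 2, CD68 and LYZ, summed to 12.8 and 8.94 units. All 5 endothelial markers were listed at 0 in both. The part of stimulation, handling or fibroblast-type expression in the levels of SLC7A5 and SLC3A2 was not tested.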

How the data were processed

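RNA of 2 SK-ES-1 libraries was measured by sequencing, 1 library of slow-cycling and 1 of non-slow-cycling cells, each assigned to its group by its sample title. Per the labels' protocols, RNA was extracted with a phenol-based reagent and libraries came from a stranded kit for messenger RNA. Per the submitters' processing notes, hg38 was the build. For aligner, counter, annotation and the strand setting of the counting, the sources used here give nothing, so reads of overlapping genes may be shared. The deposited log2 values are called normalized per the file headers. They held no value below 0, and 2 raised to each value, minus 1, summed to 983638 and 984120, so they were read as log2(per-million value + 1). The lowest values were not multiples of 1 step, so no reads could be recovered and depth is unknown; no counting interval was computed.

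The 174 lines with a locus suffix were summed per gene ID, which left 53737 of 53826 lines. Genes with at least 1 unit in at least 1 library were tested, and the pseudocount was 1, which understates differences of low genes. With 1 library per group there was no test; members past 1.5-fold were counted beside the share of all tested genes past it. Coordinates and promoter sequences came from RefSeq (GRCh38.p14) and strands from GENCODE release 29, on the same primary assembly. The counting was checked on simulated data. Python 3.11.15, numpy 2.4.6, pandas 2.3.3 and matplotlib 3.10.9 were used.

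The 10 genes, the lists and the transport groups were chosen with earlier results of these data known. Named are the 10 genes, the 4 most abundant other transporters and any past 1.5-fold, the 3 genes with the largest difference of each further list, and set genes (ATF4, DDIT3, ASNS, MYC, NFE2L2, GCLC, BCAT1, SLC7A5P1 and SLC7A5P2). An item that these rules name is not reported here. Marker genes and any others named were picked after their values were seen. The alternatives were 2 scalings, 2 pseudocounts, 2 filters, 2 folds and the pseudogenes of SLC7A5 added to it. Removal of the trend with level, in 20 bins, the background of abundant genes and the median without SLC7A5 were added after seeing the data.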

Additional observations from a re-analysis of the deposited data

How the results depend on the processing

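No paired analysis was possible because each group has 1 library, and for the same reason no library could be left out. Of 121 alternative values, 116 kept their call and moved by at most 0.1 on the log2 scale, or, for counts, by less than 1.5 times. Many of these could not move. All of the 10 genes were at 9.01 units or more, so the 2 filters left their ratios unchanged by design. The added pseudogenes could change the ratio of SLC7A5 alone. The log2 ratio of SLC7A5 ran from 1.37 with a pseudocount of 5 to 1.499 with the level trend removed. With the median ratio of tested genes set to 0, SLC3A2 was at 0.581, under the 1.5-fold limit, which left 1 of the 10 genes at least 1.5-fold higher. That count was 4 at 1.2-fold and 1 at 2-fold, where 1.90% of tested genes were higher. Of the other plasma membrane transporters, 1 was at least 1.5-fold higher without a filter, with 16 genes tested in place of 12. The sign of the ratio changed for SLC38A1 with the median set to 0 and for SLC1A4 with the level trend removed. Depth, and so the counting error of each level, is unknown.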

Other observations

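None of the enzymes listed as users of the transported amino acids differed by 1.5-fold. Of all tested genes, 5.38% were that much higher and 1.41% that much lower, so none among 22 genes says little. All 22 listed genes of glutamine, glutamate and branched-chain amino acid use were tested, 11 with a ratio above 0 and 11 below, 20 of them within 1.2-fold, against 75.0% of all tested genes, with a median log2 ratio of 0.00. BCAT1, the cytosolic transaminase of branched-chain amino acids that SLC7A5 imports, was at 66.5 units in the SCC library and 63.96 in the non-SCC library, a log2 ratio of 0.06. Its mitochondrial counterpart BCAT2 was at 32.3 and 42.3 (-0.38), BCKDHB, a subunit of the next enzyme complex, at 15.2 and 19.0 (-0.30), and SHMT1, which interconverts serine and glycine, at 72.3 and 85.1 (-0.23).

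Of 31 tested genes by which the kinase complex mTORC1 senses amino acids, 24 lay within 1.2-fold, near the share of all tested genes, and the median log2 ratio was -0.05. SESN2, a leucine sensor that restrains mTORC1 and is itself a target of ATF4, was the only one past 1.5-fold on the log2(level + 1) scale, at 13.4 and 8.14 units, a log2 ratio of 0.66. Of all tested genes, 5.38% were at least 1.5-fold higher and 1.41% as much lower, so 1 among 31 genes says little. FNIP1, a partner of folliculin, was at 9.45 and 6.07 units (0.56), and CASTOR2, a relative of the arginine sensor, at 12.9 and 8.59 (0.54), both past 1.5-fold only as quotients of the levels themselves. SLC38A9 and SESN2 stand on more than 1 of the lists used here.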
